A study of Mus musculus with 6 samples.

Results

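The genes described here encode the proteins of the cytosolic ribosome, together with the paralogues of some of them that skeletal muscle can use. They were taken from the gene table by name: every gene called Rpl or Rps with a number, plus *Rplp0*, *Rplp1*, *Rplp2* and *Rpsa*, without the S6 kinase genes and *Rps19bp1*, with a mean of at least 10 normalised counts over the 6 libraries. In all, 85 names matched and 83 passed the minimum, of 22027 genes in the table, 50 of them named for the large (60S) subunit and 33 for the small (40S) subunit. Of the names that matched, *Rpl10l* and *Rpl39l* were listed at 0 in every library and fell outside, while *Rps27rt*, at a mean of 15.7, and *Rpl22l1*, at 594, were the lowest inside.

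RNA-seq libraries came from gastrocnemius (GAS) muscle of 3 WT and 3 mKD mice, all female, 14 weeks old and fed regular chow. In mKD mice *Tet3*, which encodes a DNA dioxygenase that oxidises 5-methylcytosine, was deleted with a Cre transgene (HSA-Cre79) driven by the human α skeletal muscle actin promoter on a *Tet3* fl/fl background. The WT mice were their floxed littermates, so both groups carry the floxed *Tet3* alleles, and the deletion is limited to cells that use that promoter, which leaves *Tet3* in the other cells of whole muscle. The labels give the 6 samples a common time of 48 h without saying what it counts from, and describe the mKD mice as a knockdown. Their sample titles read KO, and the study defines mKD as a muscle-specific *Tet3* knockout.

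A ribosome holds 1 copy of nearly every ribosomal protein, and in mammals each is usually made from a single active gene among many silent pseudogenes. Their mRNAs typically start with a C followed by a run of pyrimidines, the 5′ terminal oligopyrimidine (TOP) motif, through which mTORC1 and the RNA-binding protein *Larp1* set how much of them is translated. Striated muscle is known for an exchange of the core 60S protein *Rpl3* for its paralogue *Rpl3l*, which is made in heart and skeletal muscle and falls when muscle grows or is injured.

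The DNA around the start of transcription was read from RefSeq promoter entries (GRCm38.p6), which matched 63 of the 83 members. Each line below shows 30 bases before to 10 bases after the annotated start on the coding strand, and capitals mark a TOP-like start, here a run of at least 6 C or T that begins with C within 5 bases of the start. The first 4 are single-entry members with such a start, 3 of them among the 8 with the largest change and the other the substrate of the S6 kinases. The next 4 are paralogues, with and without it.
Rps27: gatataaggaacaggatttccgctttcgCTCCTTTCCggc
Rps9: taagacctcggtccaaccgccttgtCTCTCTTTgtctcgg
Rpl18: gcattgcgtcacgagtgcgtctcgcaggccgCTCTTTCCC
Rps6: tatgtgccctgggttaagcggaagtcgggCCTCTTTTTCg
Rpl22l1: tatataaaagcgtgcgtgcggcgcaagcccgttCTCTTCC
Rps27rt: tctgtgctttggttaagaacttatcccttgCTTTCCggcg
Rpl36al: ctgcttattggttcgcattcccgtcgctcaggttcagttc
Rpl7l1: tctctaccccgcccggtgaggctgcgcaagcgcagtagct
These windows lie at chr3:90213639-90213678 (minus strand) for *Rps27*, chr7:3704011-3704050 (plus) for *Rps9*, chr7:45718041-45718080 (plus) for *Rpl18* and chr4:86857358-86857397 (minus) for *Rps6*. Those of the paralogues lie at chr3:28805478-28805517 (plus) for *Rpl22l1*, chr9:114982730-114982769 (minus) for *Rps27rt*, chr12:69184058-69184097 (minus) for *Rpl36al* and chr17:46782647-46782686 (minus) for *Rpl7l1*.

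Of the 63 members with an entry, 27 (42.9%) held a TOP-like start in at least 1 entry, against 11.95% of 27025 genes in the same tables. The ETS motif CCGGAAG, searched on both strands of the 300-base promoter entry, was found in 25 members (39.7%) and 9.93% of all genes. Read on the other strand this motif begins with a short run of pyrimidines, so that it can overlap a TOP-like start. The YY1 motif AAGATGGC was found in 6 members (9.52%, against 3.19% of all genes) and TATAAA in 7 (11.1%, against 15.7%). *Rpl3l*, the muscle paralogue, had 2 entries, neither with a TOP-like start, and *Rpl3* had none.
Rpl3l: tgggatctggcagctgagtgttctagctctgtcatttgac
The *Rpl3l* window printed here, from the first of its entries, lies at chr17:24727796-24727835 on the plus strand. A match to letters is a description of the annotated start and not of where transcription began in these muscles.

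Reads per library numbered 16219227 to 32148270. The targeted gene *Tet3* had normalised counts of 594, 536 and 708 in WT muscle and of 425, 318 and 472 in mKD muscle. Every mKD library lay below every WT library, with a log2 fold change of -0.60 (SE 0.18, adjusted p = 0.18 from limma). Which exons were deleted, and so how many of these reads come from outside them, is not given in the sources used here. All 8 markers of skeletal muscle fibres (1 of 8 lower, *Ttn* at a log2 fold change of -0.99) were present in every library, with summed counts of 4835540 to 6126540 in WT and 4815590 to 5885620 in mKD. The longest transcript of *Ttn* has 106824 nucleotides. With the trend over longest transcript length described below removed, *Ttn* stood at -0.16 and did not pass. With the trend over median transcript length removed, *Ttn* stood at -0.93 and passed towards WT. Schwann cell and nerve markers (2 of 8 higher) summed to 2328 to 2422 in WT but to 37680, 1793 and 11527 in mKD libraries 1, 2 and 3. Adipocyte markers (2 of 6 higher) summed to 13.9 to 1289 in WT and 1160 to 5698 in mKD, while endothelial markers (4 of 8 lower) summed to 8682 to 9859 in WT and 5384 to 7044 in mKD, without overlap. Satellite cell markers (6 listed and 5 tested, 1 lower) summed to 800 to 1252 in WT and 712 to 743 in mKD. Of those tested, 4 had a negative log2 fold change and 1 a positive one. In WT library 3, which had the sum of 1252, *Sdc4* alone had 999. Markers of fibroblasts (2 of 8 lower), leukocytes and blood (none past the cut-off) overlapped in their sums, and no marker was at 0 in all libraries. Fewer cells of a type and less RNA per cell cannot be told apart in bulk tissue.

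Values of ribosomal protein transcripts in mKD muscle lay mostly above those in WT muscle, and 57 of the 83 members passed the unadjusted test given next. The members held 1.45%, 1.46% and 1.40% of all reads in WT and 1.92%, 1.86% and 1.73% in mKD, a mean of 1.44% ± 0.030 (SD, n = 3) against 1.83% ± 0.098. The lowest mKD library lay above the highest WT library, and no test was run on this share since it is a sum over the members. Of the 83 members, 82 had a positive log2 fold change, with a median of 0.36, an interquartile range of 0.29 to 0.46 and extremes of -0.14 and 0.67. The median over all 12322 genes tested was 0.01.

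A fold cut-off and an FDR rule are both named by the study, and both kinds of rule were applied. A cut-off of 1.2-fold with an unadjusted p under 0.05, from limma on log2(normalised count + 1), was passed by 57 of the 83 members towards mKD, where 8.31% of all genes tested passed in that direction. None of the members passed towards WT, where 9.51% of all genes did (0 members also with edgeR and DESeq2, and 0 at any fold in limma). In 60 members every mKD library lay above every WT library, which held for 12.1% of all genes. An unadjusted p under 0.05 in limma was found for 58 of the 83 members and for 2229 of the 12322 genes tested. After adjustment over all genes, 0 members and 0.0162% of all genes had an adjusted p under 0.05 in limma. The smallest adjusted p of a member was 0.105. On whole reads recovered from the table, edgeR called 0 members at an adjusted p under 0.05 and DESeq2 called 30. DESeq2 called 1.9% of all genes it tested as higher.

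**Figure D1:**
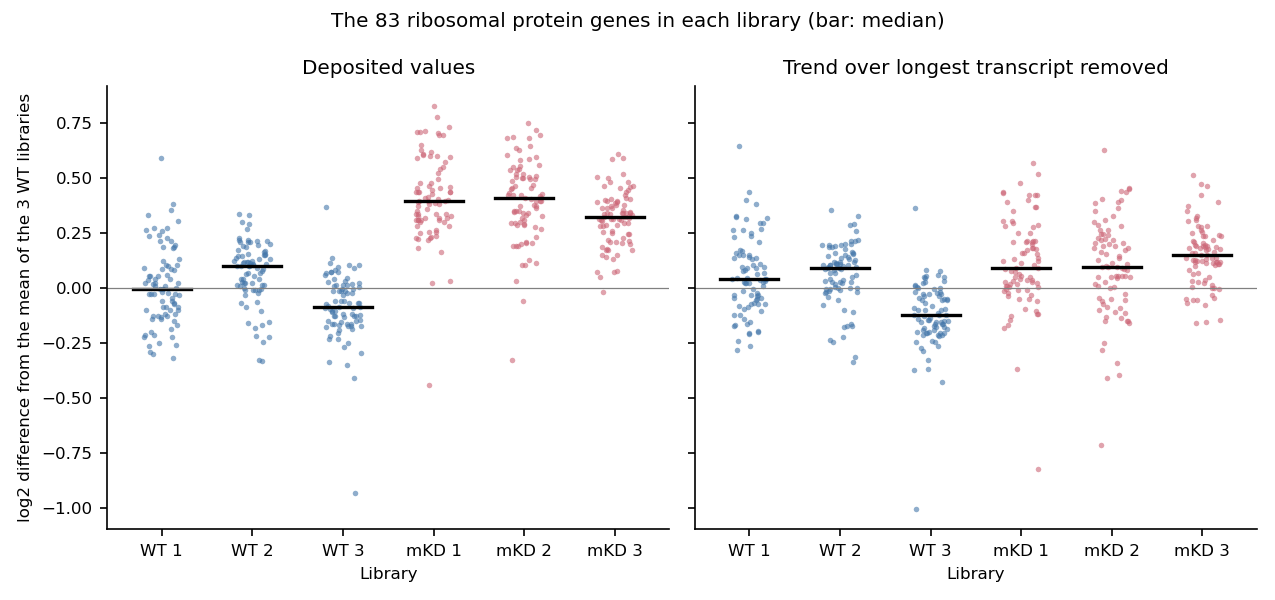
Each point is 1 of the 83 members in 1 library, as the log2 difference from its mean in the 3 WT libraries, with the median as a bar, for the deposited values (left) and after removal of each library's trend over longest transcript length (right). The medians of the 3 mKD libraries sit at 0.32 to 0.41 on the left and at 0.09 to 0.15 on the right, where WT library 2 is also at 0.09.

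The shift was seen in each mKD library and was not carried by 1 of them. Relative to the WT mean the median member stood at -0.003, 0.10 and -0.08 on the log2 scale in WT libraries 1, 2 and 3, and at 0.40, 0.41 and 0.32 in mKD libraries 1, 2 and 3. A member's highest value of the 6 was in mKD library 1 for 35 members, in library 2 for 33, in library 3 for 14 and in a WT library for 1. The lowest was in WT library 3 for 41, in WT library 1 for 29, in WT library 2 for 12 and in mKD library 1 for 1. The median member stood at 0.41 in mKD library 2, where the 8 nerve markers summed to less than in any WT library, and at 0.40 in mKD library 1, where they summed to the most. With mKD libraries 1 and 3 left out, 28 members passed and the median was 0.41, and 3.73% of all genes passed in that fit, which assumes that the lone mKD library varies like WT. The parts of nerve, adipocyte and endothelial markers in the shift were not tested.

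Ribosomal protein transcripts are short, and in these libraries short transcripts as a class were higher in mKD. The longest annotated transcript of a member had a median of 1106 nucleotides (374 to 5179), against 3480 over all genes tested, and across all genes the fold change fell with that length (Spearman rho -0.45 over 12315 genes that share the same 6 libraries and are not independent). Across the 83 members rho was -0.15. Among genes with a longest transcript over 500 and up to 1000 nucleotides, the median log2 fold change was 0.35 over all 436 genes, which include the members, and 0.37 over the 29 members. Over 1000 and up to 1500 nucleotides the medians were 0.28 over 835 genes and 0.37 over 23 members, and over 2000 and up to 3000 nucleotides 0.11 over 2515 genes and 0.39 over 10 members. Up to 500 nucleotides they were 0.28 over 33 genes and 0.38 over 6 members, so of these 4 bins the medians lay closest together in that of 500 to 1000 nucleotides. The bins use the longest annotated transcript, which in a member can be far longer than its median one. For *Rpl18* these are 2989 and 535 nucleotides, and for *Rps19* 2657 and 618.5. The median transcript of a gene had a median of 632 nucleotides over the members and 1459.5 over all genes tested.

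**Figure D2:**
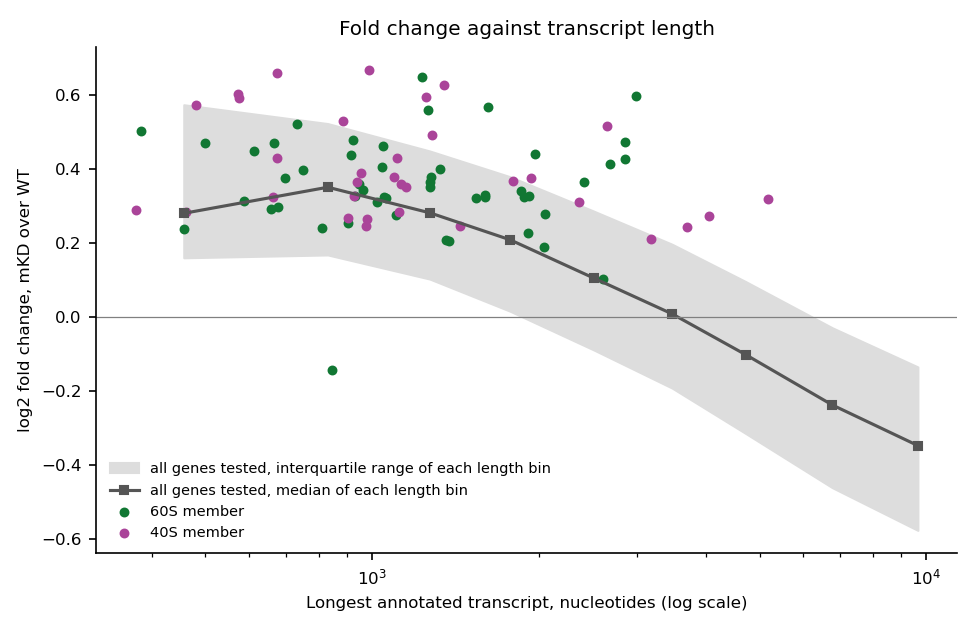
The log2 fold change of each member (points, 60S and 40S) and the median and interquartile range of all genes tested in 9 bins of length are plotted against the longest annotated transcript on a log axis. Between 500 and 1000 nucleotides the members straddle the median of all genes (0.35), and from 1500 nucleotides up nearly all lie above it. A member placed there by its longest transcript can have a short median one, as *Rpl18* does (2989 and 535 nucleotides).

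After subtraction of the trend that each library showed over longest transcript length, 13 members passed the cut-off towards mKD, none passed towards WT, and the median fell to 0.11. In that fit 5.04% of all genes passed towards mKD, and 67 members had a positive value. Among the members the text names, *Rpl18* (0.55), *Rps19* (0.44), *Rpl34* (0.39), *Rps9* (0.38), *Rps14* (0.37) and *Rpl10a* (0.36) passed there. With the median transcript of each gene as its length, 31 members passed, the median was 0.24, and 6.67% of all genes passed. Which length applies to the transcripts made in these muscles was not tested. Below, the length trend stands for that over the longest transcript unless the median transcript is named.

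**Figure D3:**
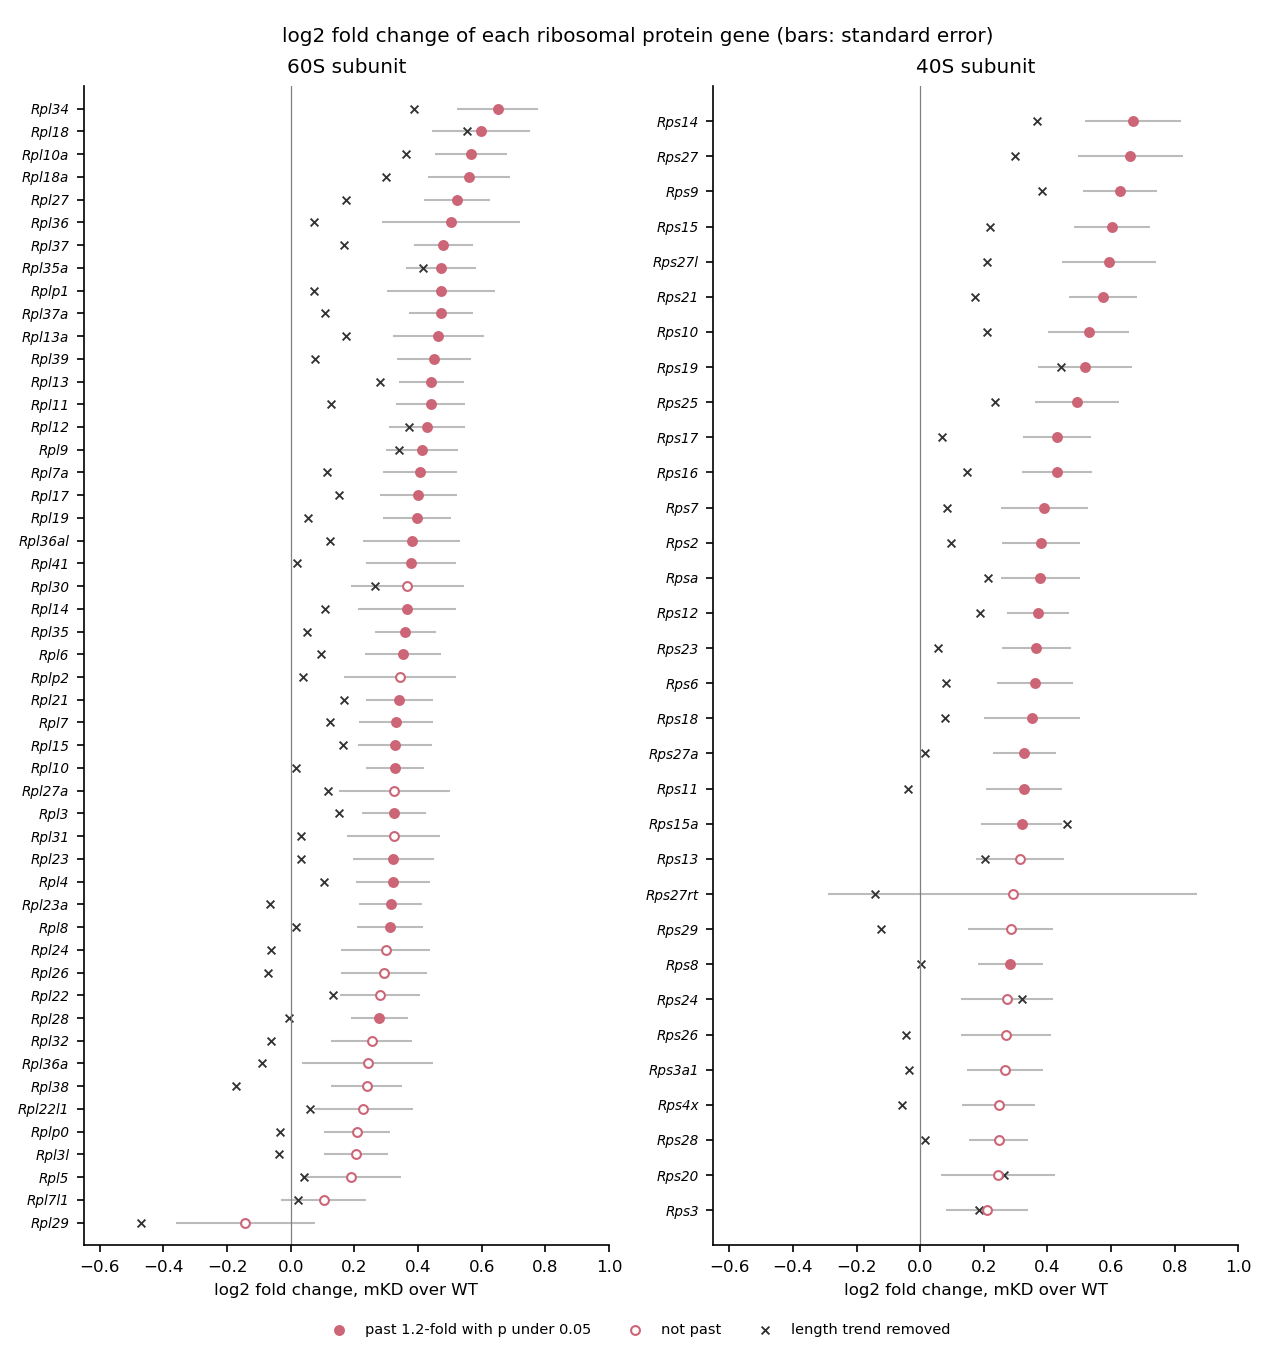
The log2 fold change of mKD over WT is shown for the 60S and 40S members, all but 1 of the 83, with the standard error as a bar, filled where the gene passed 1.2-fold with p under 0.05 and with a cross for the value after removal of the length trend. All points shown but *Rpl29* lie right of 0, while 16 crosses lie left of it.

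Both subunits had members that passed. Of the 60S members 34 of 50 passed towards mKD with a median of 0.35, and of the 40S members 23 of 33 with a median of 0.37. With the length trend removed the counts were 8 and 5 and the medians 0.10 and 0.17. The difference between the subunits was not tested. Members with a TOP-like start (27 genes, 19 passed) had a median of 0.36, and those with an entry but no such start (36 genes, 23 passed) had 0.37. The 25 members with the ETS motif had a median of 0.38 and the 38 without it 0.35, and the 7 with TATAAA had 0.25 (2 passed) and the 56 without it 0.37 (40 passed).

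*Rpl3l* was the dominant form of its pair in every library. It lies at chr17:24727820-24736143 (plus strand) and *Rpl3* at chr15:80077791-80091868 (minus strand) in GENCODE M21 on GRCm38, and their proteins, of 407 and 403 residues, are identical at 75.7% of aligned positions. Normalised counts of *Rpl3l* were 12934, 12871 and 13086 in WT and 15976, 14152 and 14762 in mKD. Those of *Rpl3* were 1014, 1074 and 1018 in WT and 1364, 1269 and 1258 in mKD. For both genes every mKD library lay above every WT library.

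The log2 fold change of *Rpl3l* was 0.21 (SE 0.10, adjusted p = 0.33 from limma) and did not pass, and that of *Rpl3* was 0.32 (SE 0.10, adjusted p = 0.19) and did. With the longest-transcript trend removed they were -0.04 and 0.15, and with the median-transcript trend removed 0.12 and 0.24. Neither gene was past the cut-off in these fits. Per kilobase of the longest transcript, the level of *Rpl3l* in WT was 17.1 times that of *Rpl3*, and 15.7 times in mKD, or 9.99 and 9.20 times per kilobase of the median transcript. By level per kilobase in WT *Rpl3l* ranked 7th of the 83 members and *Rpl3* 80th.

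*Rpl3l* made up 94.6%, 94.2% and 94.6% of the pair per length in WT and 94.1%, 93.8% and 94.1% in mKD. The mKD shares all lay below the WT shares, by a fraction of a percentage point. The log2 ratio of the counts of *Rpl3l* to those of *Rpl3* was 3.65 ± 0.056 in WT and 3.53 ± 0.041 in mKD (SD, n = 3), a difference of -0.12. An exact two-sided permutation test gave p = 0.1, the smallest possible with 3 against 3 (adjusted p = 0.6 over the 6 pairs compared), so no pair could pass the threshold.

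**Figure D4:**
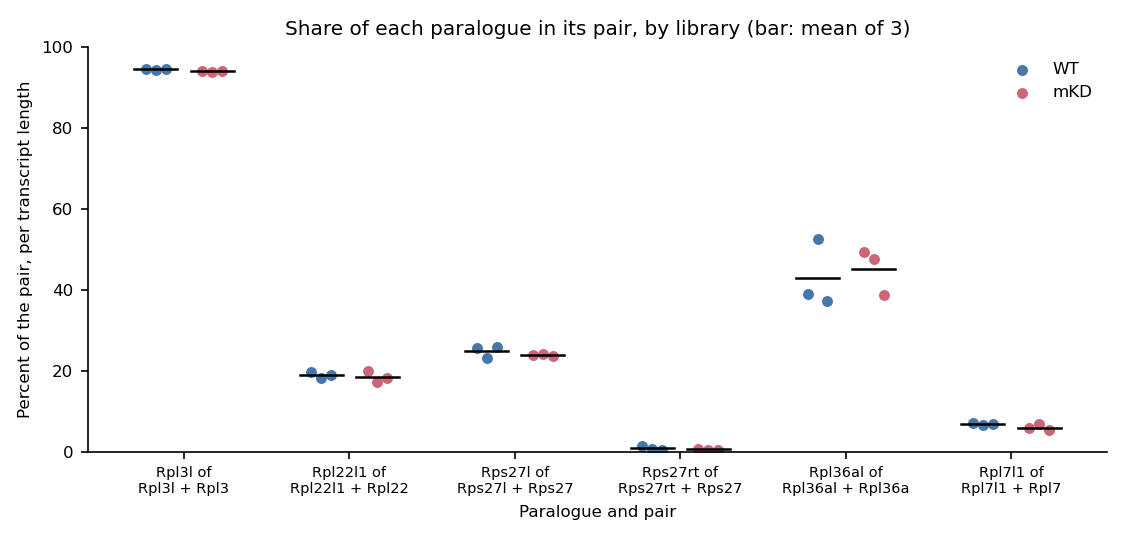
The share of each paralogue in its pair, per length of the longest transcript, is plotted in percent for the 3 WT and 3 mKD libraries, with the mean of each group as a bar. *Rpl3l* takes 93.8% to 94.6% of its pair in the 6 libraries, and *Rpl36al* is the pair with the widest scatter between libraries.

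The other paralogues were the minor form of their pairs, or close to equal. *Rpl22l1*, a paralogue of the RNA-binding 60S protein *Rpl22* with 70.3% protein identity, had 553, 580 and 501 counts in WT and 736, 522 and 672 in mKD, and the groups overlapped. Counts of *Rpl22* were 2415, 2810 and 2286 in WT and 3200, 2680 and 3243 in mKD, where the groups overlapped as well. The log2 fold changes were 0.23 (SE 0.16, adjusted p = 0.47) and 0.28 (SE 0.13, adjusted p = 0.29), and neither passed. Per length *Rpl22l1* was 19.0% ± 0.80 of the pair in WT and 18.4% ± 1.27 in mKD (SD, n = 3), and the log2 ratio differed by -0.05 (exact permutation p = 0.7).

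*Rps27l* encodes a protein 96.4% identical to *Rps27*, a zinc-finger protein of the 40S subunit. Its counts were 781, 1045 and 1009 in WT and 1532, 1468 and 1256 in mKD, and those of *Rps27* were 2663, 4075 and 3381 in WT and 5704, 5384 and 4715 in mKD. Neither gene had overlapping groups. Both were among the 8 members with the largest change, at a log2 fold change of 0.59 (SE 0.15, adjusted p = 0.15) for *Rps27l* and 0.66 (SE 0.17, adjusted p = 0.15) for *Rps27*. Both passed the cut-off, and neither did with the longest-transcript trend removed (0.21 and 0.30). With the median-transcript trend removed both passed (0.43 and 0.49). *Rps27l* was 24.8% ± 1.52 of the pair in WT and 23.9% ± 0.21 in mKD, and the log2 ratio differed by -0.07 (exact permutation p = 0.4).

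*Rps27rt*, a retrogene at chr9:114982366-114982739 (minus strand), encodes the same protein as *Rps27* and shares a run of 341 identical bases with its transcript, so the reads of both cannot be told apart along it. Its counts were 20.6, 17.1 and 6.51 in WT and 20.7, 15.3 and 14.1 in mKD, as few as 7 reads in a library. The groups overlapped, and the log2 fold change of 0.29 had a standard error of 0.58 (adjusted p = 0.82). This fold change turned to -0.14 with the longest-transcript trend removed and to -0.17 without WT library 3. With the median-transcript trend removed it was 0.086.

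*Rpl36al* and *Rpl36a* encode the same 60S protein from coding sequences that are 87.7% identical. *Rpl36al* had 1627, 1774 and 1198 counts in WT and 1994, 1994 and 1917 in mKD, without overlap, and passed at 0.38 (SE 0.15, adjusted p = 0.25). *Rpl36a* had 1614, 1022 and 1280 in WT and 1305, 1390 and 1926 in mKD, with overlap, and did not pass at 0.24 (SE 0.21, adjusted p = 0.56). *Rpl36al* overlaps another coding gene on its own strand, so its reads may be shared with that gene. Its share of the pair ranged from 37.3% to 52.5% in WT and from 38.8% to 49.3% in mKD, the widest of the 6 pairs (log2 ratio 0.14 higher in mKD, exact permutation p = 0.9).

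*Rpl7l1* is 40% identical to *Rpl7* and related to a yeast protein, Rlp7, that acts in 60S assembly, so its name rather than a known place in the mature ribosome puts it among the members. Its counts were 713, 828 and 708 in WT and 763, 919 and 738 in mKD, with overlap, and its log2 fold change of 0.10 (SE 0.13, adjusted p = 0.71) was among the smallest. *Rpl7* had 5704, 7156 and 5807 in WT and 7679, 7807 and 7867 in mKD, without overlap, and passed at 0.33 (SE 0.12, adjusted p = 0.21). The log2 ratio of *Rpl7l1* to *Rpl7* was -3.05 ± 0.057 in WT and -3.27 ± 0.170 in mKD (exact permutation p = 0.2).

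Of the 2 paralogues listed at 0, a floor of 3 reads in a library allows *Rpl10l* at most 0.146% of the reads of *Rpl10*, the 60S protein it resembles at 98.6% of residues, and *Rpl39l* at most 0.271% of those of *Rpl39*. *Rpl10* had 3257, 3355 and 3262 counts in WT and 4286, 3990 and 4116 in mKD. *Rpl39* had 1753, 1855 and 1579 in WT and 2567, 2151 and 2376 in mKD. Neither gene had overlapping groups, and both passed, at 0.33 (SE 0.09, adjusted p = 0.17) and 0.45 (SE 0.12, adjusted p = 0.15). *Rps4x*, an X-linked 40S gene, had 6922, 7892 and 6327 counts in WT and 8187, 8069 and 8748 in mKD, without overlap, and at 0.25 (SE 0.11, adjusted p = 0.30) did not pass.

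The largest changes were in structural proteins of both subunits. *Rps14*, a 40S protein whose gene is lost on 1 copy in the human 5q- syndrome, had 3993, 5669 and 5149 counts in WT and 8672, 7329 and 7370 in mKD. *Rpl34*, a 60S protein, had 1606, 2125 and 1882 in WT and 3089, 2831 and 2839 in mKD. *Rps9*, a 40S protein that affects decoding fidelity in yeast, had 4223, 5018 and 4743 in WT and 7637, 7476 and 6494 in mKD. In each the lowest mKD library stood well above the highest WT library, and the log2 fold changes were 0.67 (SE 0.15, adjusted p = 0.13), 0.65 (SE 0.13, adjusted p = 0.11) and 0.63 (SE 0.12, adjusted p = 0.11).

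*Rps15*, whose protein lies near the decoding site, had 5642, 6019 and 6517 counts in WT and 9302, 10176 and 8194 in mKD. *Rpl18*, of the 60S subunit, had 1744, 2540 and 1859 in WT and 3084, 3242 and 2856 in mKD. Again the groups did not overlap, at log2 fold changes of 0.60 for *Rps15* (SE 0.12, adjusted p = 0.11) and 0.60 for *Rpl18* (SE 0.15, adjusted p = 0.15). These 5 genes passed the cut-off, and all but *Rps15* (0.22) did so with the longest-transcript trend removed. With the median-transcript trend removed *Rps15* stood at 0.47 and passed.

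The stalk proteins recruit elongation factors to the 60S subunit. *Rplp0*, the stalk base, had 20585, 18271 and 19335 counts in WT and 22523, 22738 and 21918 in mKD. *Rplp1* had 10791, 8057 and 8781 in WT and 14826, 13316 and 10320 in mKD, and *Rplp2* had 5542, 3644 and 3803 in WT and 5765, 5676 and 4791 in mKD. The groups overlapped in *Rplp1* and *Rplp2* and not in *Rplp0*.

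*Rplp1* passed at 0.47 (SE 0.17, adjusted p = 0.22), while *Rplp2* at 0.34 (SE 0.17, adjusted p = 0.34) and *Rplp0* at 0.21 (SE 0.10, adjusted p = 0.33) did not. *Rplp0* turned to -0.04 with the longest-transcript trend removed and stood at 0.12 with the median-transcript trend removed. The differences between the 3 were not tested. By level in WT, *Rplp1* ranked 1st and *Rplp0* 2nd of the 83 per kilobase of the longest transcript, and 3rd and 1st per kilobase of the median transcript. *Rpsa*, a 40S protein also described as a laminin receptor, had 9605, 8112 and 7294 in WT and 10464, 11167 and 10653 in mKD, without overlap, and passed at 0.38 (SE 0.12, adjusted p = 0.20).

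Several members are known for roles outside the bulk ribosome. *Rps6*, the classic substrate of the S6 kinases, had 3949, 4773 and 3804 counts in WT and 5048, 5526 and 5444 in mKD, without overlap, and passed at 0.36 (SE 0.12, adjusted p = 0.20). Of *Rpl5* and *Rpl11*, which carry 5S rRNA and bind the p53 regulator Mdm2 in the same particle, only *Rpl11* passed. *Rpl5* had 7134, 6599 and 4781 in WT and 6817, 6956 and 7048 in mKD, and *Rpl11* had 2575, 2888 and 2433 in WT and 3605, 3734 and 3358 in mKD. *Rpl5* overlapped between the groups and did not pass at 0.19 (SE 0.16, adjusted p = 0.55), and *Rpl11* did not overlap and passed at 0.44 (SE 0.11, adjusted p = 0.14). The difference between them was not tested.

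*Rps27a*, made as a fusion with ubiquitin, had 2773, 2923 and 3136 counts in WT and 3809, 3541 and 3723 in mKD. *Rps19*, mutated in human Diamond-Blackfan anaemia, had 2330, 3342 and 3036 in WT and 4328, 4220 and 3801 in mKD. *Rpl10a*, linked to the choice of mRNAs in mouse embryonic stem cells, had 2575, 3092 and 2626 in WT and 4179, 4287 and 3802 in mKD. None of these overlapped between the groups, and they passed at 0.33 (SE 0.10, adjusted p = 0.18), 0.52 (SE 0.15, adjusted p = 0.17) and 0.57 (SE 0.11, adjusted p = 0.11).

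*Rpl13a*, which in human monocytes leaves the ribosome to repress inflammatory mRNAs, had 2876, 3804 and 3653 counts in WT and 5294, 4677 and 4239 in mKD, without overlap, and passed at 0.46 (SE 0.14, adjusted p = 0.18). It overlaps another coding gene on its own strand. *Rpl38*, needed for the translation of Hox mRNAs in mouse embryos, had 2553, 2339 and 2238 in WT and 3031, 2554 and 2836 in mKD. Its lowest mKD value was just above its highest WT value, and at 0.24 (SE 0.11, adjusted p = 0.30) it did not pass. *Rpl38* turned to -0.17 with the longest-transcript trend removed and stood at 0.03 with the median-transcript trend removed. *Rps3*, a 40S protein also described in DNA repair, had 6428, 7412 and 5434 in WT and 7470, 7284 and 7373 in mKD, with overlap, and did not pass at 0.21 (SE 0.13, adjusted p = 0.42).

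*Rpl29*, a heparin-binding 60S protein whose loss makes mice small, was the only member with a negative log2 fold change. Its counts were 2103, 2794 and 2121 in WT and 1707, 1851 and 2928 in mKD. The groups overlapped, since mKD library 3 was the highest of the 6 and libraries 1 and 2 the lowest. The value was -0.14 (SE 0.22, adjusted p = 0.76) and 0.006 without mKD library 1. The 6 smallest values were those of *Rpl29*, *Rpl7l1*, *Rpl5*, *Rpl3l*, *Rplp0* and *Rps3*, and none of these passed.

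The table also holds 11 rows named as pseudogenes of ribosomal protein genes, which took at most 0.000626% of the reads of a library. Their summed counts were 101, 80.3 and 128 in WT and 158, 132 and 154 in mKD. Of the 83 members 4 overlap another coding gene on the same strand and 16 one on the other strand. The 63 that overlap none had a median of 0.37, with 42 past the cut-off.

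Ribosomal protein genes whose names the rule does not take were also measured. *Fau*, a ubiquitin-like protein fused to the 40S protein eS30, had 1742, 2177 and 2270 counts in WT and 3535, 3570 and 2654 in mKD, and *Rack1*, the 40S scaffold protein, had 6762, 8503 and 8880 in WT and 10405, 13171 and 12098 in mKD. Neither overlapped, and both passed, at 0.65 (SE 0.16, adjusted p = 0.14) and 0.57 (SE 0.14, adjusted p = 0.15).

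Of all genes tested, 8.31% passed towards mKD and 9.51% towards WT. Among 9 genes of translation elongation 3 passed towards mKD, none towards WT, and the median was 0.20, or 0.17 with the length trend removed. They were *Eef1b2* (0.53, SE 0.10, adjusted p = 0.11) and *Eef1d* (0.38, SE 0.12, adjusted p = 0.20), subunits of the exchange factor that reloads eEF1A, and *Eif5a* (0.49, SE 0.14, adjusted p = 0.17), the hypusine-bearing factor. Of 44 ribosome biogenesis genes 8 passed towards mKD and 1 towards WT, with a median of 0.12. *Nop10* (0.67, SE 0.15, adjusted p = 0.13) and *Nhp2* (0.64, SE 0.13, adjusted p = 0.11), which belong to the particles that guide pseudouridylation, and *Eif6* (0.49, SE 0.14, adjusted p = 0.17), which keeps 60S subunits from joining too early, had the smallest p. With the length trend removed 6 passed towards mKD and none towards WT, and the median was 0.10. In that fit 5.04% of all genes passed towards mKD.

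Of 16 genes that control mTORC1 and TOP mRNAs 3 passed towards mKD and 2 towards WT, where 8.31% and 9.51% of all genes did. The median was -0.11. With the length trend removed 3 passed towards mKD and 0 towards WT, and the median was 0.11. *Eif4ebp1*, the translation repressor that mTORC1 inactivates, had 786, 952 and 795 counts in WT and 1341, 1746 and 1599 in mKD, without overlap (0.88, SE 0.14, adjusted p = 0.091). *Larp1*, which binds TOP mRNAs, had 5140, 5680 and 5032 in WT and 3992, 4224 and 2806 in mKD, also without overlap (-0.54, SE 0.16, adjusted p = 0.18). *Myc*, a transcription factor for ribosomal protein and rRNA genes, was at 0.70 (SE 0.21, adjusted p = 0.18). *Eif4ebp1* and *Myc* passed with the length trend removed (0.73 and 0.59), and *Larp1* did not (-0.31). Of 7 ribosome-associated chaperones and nascent chain factors, limma called 0, with a median of 0.12, and none had an unadjusted p under 0.05 or an adjusted one under 0.05 in DESeq2. With the length trend removed 1 passed towards mKD, where 5.04% of all genes did, and 0 towards WT, with a median of 0.05.

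**Figure D5:**
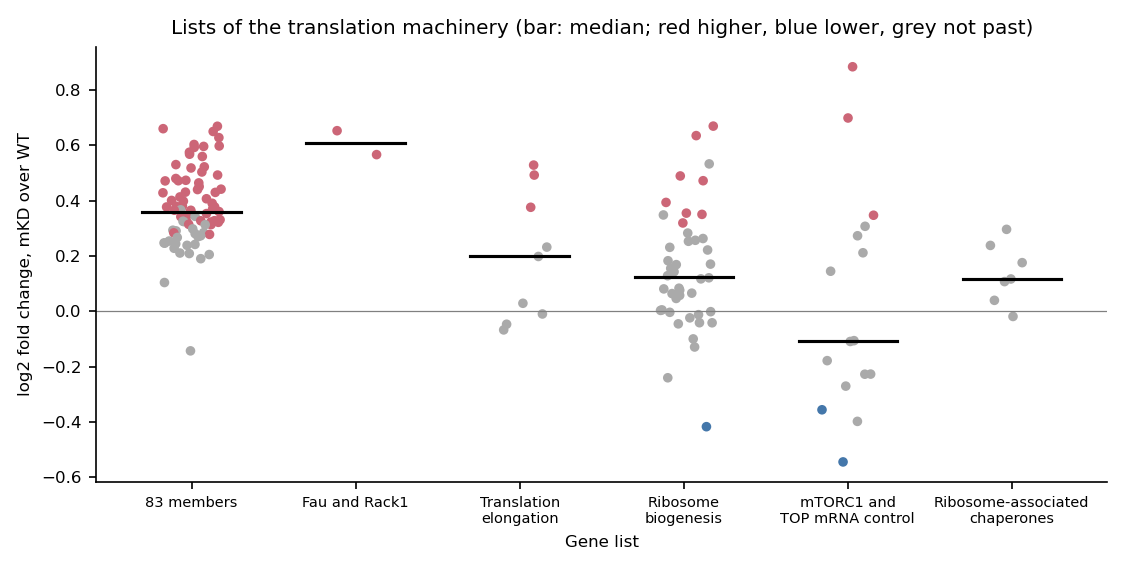
The log2 fold change of mKD over WT is plotted for the 83 members and for 5 lists of the translation machinery, 1 point for each gene shown, the median of those points as a bar, red where the gene passed 1.2-fold with p under 0.05 towards mKD, blue towards WT and grey where it did not pass. The medians are 0.36 for the members, 0.20 for elongation, 0.12 for biogenesis and -0.11 for mTORC1 and TOP mRNA control. With the longest-transcript trend removed, which is not plotted, they were 0.11, 0.17, 0.10 and 0.11 in the same order.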

How the data were processed

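Total RNA of GAS muscle was made into strand-specific libraries after poly(A) selection. The deposited signal values are read counts that the authors divided by 1 factor per library. The submitters' processing notes name Partek Flow and GRCm38 (mm10), the study names DESeq2, with aligner and counter not given in the sources used here. Also in that table are the authors' fold changes, p-values and test statistics, which were not used. Whole reads were recovered by division by the value of 1 read (100% of values whole within 1e-04 in each library), and 0 columns were left unmapped. limma 3.58.1 with a trend (R 4.3.3), on log2(value + 1) with genotype as the only term, was fitted to the 12322 genes passing edgeR's filterByExpr, which all 83 members passed, with Benjamini-Hochberg adjustment over them. edgeR 4.0.16 and DESeq2 1.42.0 were run on recovered reads. Log2 fold changes of low genes are understated by the pseudocount of 1. The length trend was a lowess curve (span 0.3) per library. GENCODE M21 held 99.7% of gene identifiers and gave lengths for 12315 genes tested. The scripts were tested on simulated data. Labels do not say how the 3 samples of a group were taken, and the study calls them biological replicates.

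The members, lists, pairs and alternatives were chosen with earlier results of these data known. Genes named are both genes of each paralogue pair, the stalk genes and *Rpsa*, 10 members with known further roles, the 8 largest and 6 smallest log2 fold changes, and up to 3 genes with the smallest p of each other list. A paralogue of *Rps4x* is not analysed here, and 2 genes that this rule or these lists take are not reported. Alternatives were TMM and upper-quartile scaling, filters, pseudocounts, both lengths, a block for replicate number and the omission of libraries. Exact permutation tests were two-sided.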

Additional observations from a re-analysis of the deposited data

How the results depend on the processing

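No setting gave a member lower at the cut-off, and the count of 57 was 55 to 60 under both scalings, both filters, both pseudocounts, DESeq2 and edgeR. It was 13 with the longest-transcript trend removed (median log2 fold change 0.11), 31 with the median-transcript trend removed (0.24) and 28 with mKD libraries 1 and 3 left out. Leaving out 1 library gave 43 to 59 members and medians of 0.31 to 0.40, and DESeq2 called 30 members at an adjusted p under 0.05, where limma and edgeR called 0. The replicate numbers did not pair the samples (correlations of 0.06, -0.05 and -0.08 between deviations of same-numbered libraries). With the replicate block 53 members passed, and with the replicate block and the longest-transcript trend removed 11 (median 0.11). The share of all genes passing the cut-off was not counted for the block fits or the fits without 1 library. It was also not counted for the other scalings, filters, pseudocounts and tools, so these counts have no background beside them. Removing the longest-transcript trend, with or without the block, reversed *Rpl3l* (-0.036), *Rps27rt* (-0.14), *Rpl36a* (-0.092), *Rps4x* (-0.056), *Rplp0* (-0.035) and *Rpl38* (-0.17). With the median-transcript trend removed the same genes stayed positive, at 0.12, 0.086, 0.13, 0.16, 0.12 and 0.031 in that order. Leaving out mKD libraries 1 and 3 reversed *Rpl22l1* (-0.058). The cause of these reversals was not tested. Without 1 library, the log2 fold change ranged from -0.17 to 0.59 for *Rps27rt* and from -0.38 to 0.0059 for *Rpl29*. The difference in log2 ratio ranged from -0.12 to 0.0015 for *Rpl22l1*, from -0.85 to 0.087 for *Rps27rt* and from -0.028 to 0.42 for *Rpl36al*. For *Rpl3l* it stayed between -0.15 and -0.10. Leaving out each library for the share of reads was chosen after seeing the data and gave a difference of 0.357 to 0.452 percentage points. *Rpl3l* made up 94.5% of its pair per longest and 90.9% per median transcript. Of the 34 named members, 14 no longer passed with the longest-transcript trend removed, 7 with the median-transcript trend removed and 10 with mKD libraries 1 and 3 left out.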
